A study of Mus musculus with 18 samples.

Results

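The data describe glucose uptake and glycolysis genes in mouse embryonic stem cells (mESCs) with and without Zeb2, a zinc-finger transcription factor, during neural differentiation. The 8 genes were the rows of the deposited table with the symbols Slc2a1, Slc2a3, Hk2, Pfkl, Pfkp, Ldha, Ldhb and Pdk1, and all 8 were among its 10965 genes. RNA-seq was done on 18 libraries in 6 groups of 3 replicates. Ctrl cells carried Zeb2 fl/fl alleles, KO cells were Zeb2 -/-, and all were of the CD1 strain. The methods describe KO lines on the CD1 background that were made from the floxed lines by introducing a Cre vector, so the floxed allele is part of the history of both genotypes, and further KO lines on a mixed background, which the labels of these libraries do not name. Which clone stands behind each replicate is not given in the sources used here. On d0, cells were ground-state mESCs in 2i+LIF, which is a serum-free medium with inhibitors of MEK and GSK3. On d4, they were embryoid bodies in medium with 15% fetal serum, labelled multipotent progenitors. On d6, they were embryoid bodies whose medium was replaced on d4 by N2B27 and retinoic acid at 500 nM, labelled neural progenitors. Day and medium changed together in both genotypes and cannot be told apart.

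Cells take up glucose through facilitative transporters of the Slc2a family and hold it inside by phosphorylation with a hexokinase. Phosphofructokinase then makes the committed step of glycolysis, and the pathway ends in pyruvate. Lactate dehydrogenase turns pyruvate into lactate, while the pyruvate dehydrogenase complex in mitochondria turns it into acetyl-CoA, and pyruvate dehydrogenase kinases inhibit that complex. Pluripotent cells are known for high glycolytic flux, and the balance between both fates of pyruvate shifts as they leave the naive state.

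Zeb2 itself lay between 0.12 and 0.14 TPM (a measure of transcript abundance per library) in the Ctrl libraries on d0, between 1.23 and 1.47 TPM on d4 and between 7.53 and 7.81 TPM on d6. In KO libraries, it reached at most 0.73 TPM on any day. The reads recovered from the TPM values ranged from 9624677 to 15621169 per library, and the 8 genes had 149 to 66086 reads in a library. TPM scales reads by gene length and by the library, so levels of different genes are compared per length. Genes were tested with limma on log2(TPM + 1), and a change was called where its p, adjusted by the Benjamini-Hochberg method across all 10965 genes, lay below 0.01. Over all genes, the log2 ratio of KO to Ctrl had a median of -0.07 on d0, -0.16 on d4 and -0.14 on d6. Rescaling each library by the median ratio of its genes moved these medians to -0.03, 0.00 and 0.01 and moved the share of called genes that were higher in KO from 28% to 49.6% on d4 and from 34.3% to 49.9% on d6. The same rescaling moved the share of higher genes among those called between days from 66.9% to 49.4% for Ctrl d0 to d4 and from 63.2% to 49.1% for KO d0 to d4, and on d6 against d0 from 64% to 49.6% in Ctrl and from 59.5% to 49.7% in KO.

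The labelled cell states were checked against markers. On d0, the 6 naive pluripotency genes summed to 2666 to 2794 TPM in Ctrl and 2662 to 2872 TPM in KO. Of these, Esrrb was higher and Dppa3 lower in KO on d0. Of the 6 general pluripotency genes, Sox2 alone was called on d0 (lower in KO), and 5 were higher in KO on d6. Over all genes, 16.4% were lower and 10.6% higher on d0, and 17.9% were higher on d6. The 6 neural progenitor genes summed to 331 to 371 TPM in Ctrl libraries on d6 and to 65.1 to 77.8 TPM in KO libraries, where Pax6 was at 0.82 ± 0.11 TPM (SD, n = 3). All 5 genes of the postimplantation epiblast, among them Otx2 and Fgf5, were higher in KO on both d4 and d6, and their sum on d6 was 910 to 1047 TPM in KO and 134 to 144 TPM in Ctrl. On d0, 3 of the 5 were lower in KO, by log2 differences of -0.82 (Otx2), -1.30 (Pou3f1) and -0.54 (Zic2). So were 2 of the 6 neural progenitor genes on d0, Zfp521 and Neurog1. Markers of other lineages moved with genotype too. The mesoderm gene Meox1 was at 208 ± 22.2 TPM in Ctrl and 0.92 ± 0.33 TPM in KO on d4 and at 153 and 0.72 TPM on d6, and the 3 measured mesoderm genes summed to 189.8 to 232 TPM in Ctrl and 3.61 to 5.06 TPM in KO on d4. Meox1 made up most of this sum in Ctrl, and Eomes and Hand1 were not called on d4 (adjusted p = 0.7091 and 0.5846). On d6, Eomes was higher in KO (2.00 TPM in Ctrl and 9.93 TPM in KO, adjusted p = 1.662e-06). Hand1 was lower on d6 (7.66 and 4.02 TPM, adjusted p = 0.002444). The 4 measured endoderm genes summed to 63.1 to 98.5 TPM in Ctrl and 10.8 to 15.1 TPM in KO on d6, and all 4 were lower in KO. The part of these differences in cell state in the values below, the d4 peaks of Ctrl included, was not tested. In bulk libraries, fewer cells with a transcript and less of it in each cell cannot be told apart.

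Promoter windows of the 4 genes that differed between KO and Ctrl on d6 are shown here, since Zeb2 binds DNA at CACCT sequences. Each window holds the 250 bases before a RefSeq start on GRCm38.p6, written 5′ to 3′ on the strand of the gene. Capitals mark CACCT or AGGTG, its reverse complement, and ACGTG or CACGT, the core letters bound by hypoxia-inducible factors in either orientation. Slc2a1 (chr4:119108495-119108744, plus strand) has 2 CACCT sites and 1 ACGTG site, Ldhb (chr6:142507958-142508207, minus strand) has 1 CACCT site, Hk2 (chr6:82774455-82774704, minus strand) has 2 ACGTG sites, and the upstream window of Pdk1 (chr2:71872974-71873223, plus strand) has neither.
Slc2a1: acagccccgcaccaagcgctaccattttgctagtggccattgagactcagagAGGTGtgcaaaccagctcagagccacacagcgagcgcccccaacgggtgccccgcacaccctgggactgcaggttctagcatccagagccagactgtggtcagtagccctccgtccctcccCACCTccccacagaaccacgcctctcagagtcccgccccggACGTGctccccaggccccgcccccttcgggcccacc
Ldhb: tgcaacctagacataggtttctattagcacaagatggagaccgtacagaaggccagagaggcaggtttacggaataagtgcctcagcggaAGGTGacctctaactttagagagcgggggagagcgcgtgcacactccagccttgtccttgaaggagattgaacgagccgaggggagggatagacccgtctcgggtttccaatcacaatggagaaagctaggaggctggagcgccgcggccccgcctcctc
Hk2: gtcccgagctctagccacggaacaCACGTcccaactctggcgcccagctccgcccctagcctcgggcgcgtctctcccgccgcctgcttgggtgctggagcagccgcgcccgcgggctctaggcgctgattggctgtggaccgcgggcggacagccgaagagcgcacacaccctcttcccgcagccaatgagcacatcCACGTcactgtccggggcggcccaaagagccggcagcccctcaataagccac
Pdk1: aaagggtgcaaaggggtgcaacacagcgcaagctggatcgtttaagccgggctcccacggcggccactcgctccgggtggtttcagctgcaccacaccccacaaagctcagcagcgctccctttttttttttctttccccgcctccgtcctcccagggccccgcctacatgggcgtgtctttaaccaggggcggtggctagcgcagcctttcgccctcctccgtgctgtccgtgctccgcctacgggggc
CACCT in either orientation occurs in 45.97% of 32851 windows of this length and ACGTG in 16.6%, so a match is a description of the letters only. Windows were found for 7 of the 8 genes, and Slc2a3 had none. Ldha has a window with 5 ACGTG sites, counted on both strands with overlaps, and no CACCT site, and another window with 2 CACCT sites and no ACGTG site.

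On d4, the glucose transporters showed the largest differences between KO and Ctrl of the 8 genes. Slc2a1, which encodes the widely used transporter GLUT1, lies on chromosome 4 (119108711 to 119137983, plus strand, GRCm38). On d0, the 3 Ctrl libraries had 189.9, 198 and 210.2 TPM and the KO libraries 120.2, 89.8 and 99.5 TPM. On d4, the Ctrl libraries had 1276, 1339 and 1537 TPM and the KO libraries 309.6, 338 and 322 TPM. The groups did not overlap on either day, and the KO mean on d4 was 0.234 times that of Ctrl. Over all genes, KO and Ctrl libraries did not overlap for 51.5% on d0, 65.7% on d4 and 63.7% on d6. Of the 8 genes, 5, 6 and 4 did not overlap on these days, so a lack of overlap was common and does not set a gene apart. Slc2a1 was lower in KO by a log2 fold change of -0.95 ± 0.11 (SE) on d0 (adjusted p = 4.617e-06) and of -2.09 ± 0.11 on d4 (adjusted p = 2.646e-10). On d6, Ctrl had 1145, 1009 and 1015 TPM and KO 666, 813 and 851 TPM, again without overlap. That difference of -0.45 ± 0.11 (adjusted p = 0.001547) was no longer called after median-ratio rescaling (-0.29, adjusted p = 0.02954), after removal of chromosome medians (-0.32, adjusted p = 0.01676) or without replicate 1 of KO d6 (-0.34, adjusted p = 0.01006).

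Slc2a3 encodes GLUT3, a transporter of high affinity known from neurons and from the early embryo, and lies on chromosome 6 (122727809 to 122801640, minus strand). In Ctrl, it rose from 601, 634 and 619.8 TPM on d0 to 1306, 1313 and 1330 TPM on d4 and then fell to 481, 426 and 496 TPM on d6. In KO, it was between 461 and 528 TPM in all 9 libraries. The peak on d4 was thus seen in the Ctrl libraries and not in the KO libraries. Slc2a3 was lower in KO by -0.34 ± 0.06 on d0 (adjusted p = 0.0003634) and by -1.38 ± 0.06 on d4 (adjusted p = 6.842e-11). On d6, the groups overlapped, and the log2 difference of 0.09 ± 0.06 was not called (adjusted p = 0.2052), although it was called after median-ratio rescaling (0.25, adjusted p = 0.001568), after removal of chromosome medians (0.31, adjusted p = 0.0003188) and with voom on the recovered reads (0.19, adjusted p = 0.003268). None of the changes of Slc2a3 between days was called in KO, with adjusted p = 0.5498 from d0 to d4 and adjusted p = 0.818 from d4 to d6.

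**Figure D1:**
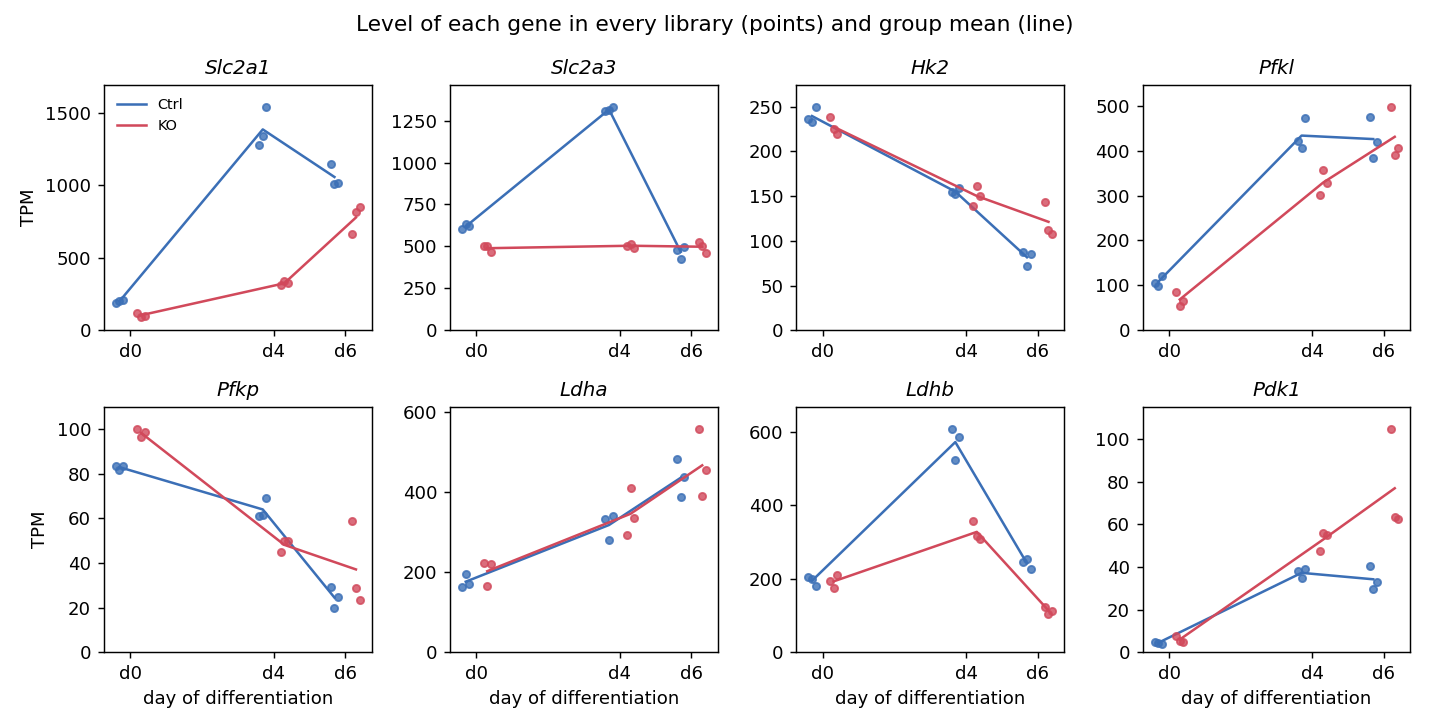
Level in TPM (y axis, from 0) of the 8 genes against day of differentiation (x axis) for Ctrl (blue) and KO (red); points are the 3 libraries of each group and lines join group means. Slc2a3 lies between 461 and 528 TPM in all KO libraries, whereas the Ctrl libraries on d4 lie between 1306 and 1330 TPM.

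Hk2, the hexokinase bound to mitochondria that is induced in highly glycolytic cells, lies on chromosome 6 (82725025 to 82774454, minus strand). On d0, Ctrl libraries had 237, 233 and 249 TPM and KO libraries 238, 226 and 219 TPM, and the groups overlapped on d0 and on d4. On d6, Ctrl had 87.6, 71.9 and 85.3 TPM and KO had 143, 112 and 108 TPM, so that each KO library lay above each Ctrl library. Hk2 was higher in KO on d6 by 0.56 ± 0.09 (adjusted p = 7.735e-05), a KO mean 1.49 times that of Ctrl. It had fallen in both genotypes from d0 to d6, by a log2 change of -1.55 ± 0.09 in Ctrl and of -0.91 ± 0.09 in KO, and the difference between these changes was 0.63 ± 0.13 (adjusted p = 0.0007492). Hk1, a widely expressed hexokinase, was at 24.7 ± 1.84 TPM in Ctrl and 28.1 ± 1.18 TPM in KO on d6 (SD, n = 3), a difference that was not called (adjusted p = 0.05691). Hkdc1, a further hexokinase gene, was lower in KO on d6 (13.5 ± 3.19 TPM in Ctrl and 1.52 ± 0.34 TPM in KO, adjusted p = 5.865e-09).

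Phosphofructokinase is a tetramer of subunits from the genes Pfkl (liver type), Pfkp (platelet type) and Pfkm (muscle type). Pfkl (chromosome 10, 77986947 to 78010083, minus strand) was measured on d0 at 105.8, 98.1 and 119.7 TPM in the Ctrl libraries, while the KO libraries had 85.1, 54.2 and 66.0 TPM. The groups did not overlap, and Pfkl was lower in KO by -0.67 ± 0.14 (adjusted p = 0.001166). The call was lost when the fit held those 2 groups alone (adjusted p = 0.01329). On d4, Pfkl was at 405 to 473 TPM in Ctrl and at 300.5 to 358 TPM in KO, a log2 difference of -0.40 ± 0.14 that was not called (adjusted p = 0.02141). It was called under 4 of 28 alternatives, among them the fit of those 2 groups alone (adjusted p = 0.004392) and quantile normalization (adjusted p = 0.008989). On d6, the difference was 0.01 ± 0.14 (adjusted p = 0.9362). Pfkl rose from d0 to d4 in both genotypes, by 2.00 ± 0.14 in Ctrl and 2.27 ± 0.14 in KO.

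Pfkp (chromosome 13, 6579768 to 6648777, minus strand) fell from 81.8 to 83.5 TPM on d0 to 19.6 to 29.1 TPM on d6 in Ctrl, by -1.74 ± 0.22, and from 96.2 to 99.8 TPM to 23.5 to 58.8 TPM in KO, by -1.49 ± 0.22. In the fit of all 6 groups, no difference of Pfkp between genotypes was called. The log2 values were 0.24, -0.40 and 0.49 on the 3 days, with adjusted p = 0.4186, 0.129 and 0.06488. The genotypes did not overlap on d0, or on d4 with 61.1 to 69.1 TPM in Ctrl and 44.7 to 49.9 TPM in KO. When the fit held only the 2 groups compared, Pfkp was called higher in KO on d0 (adjusted p = 0.005909) and lower on d4 (adjusted p = 0.002785). On d6, the KO libraries had 58.8, 29.0 and 23.5 TPM, so replicate 1 stood apart, and the difference was 0.11 without it (adjusted p = 0.4736). Exons of Pfkp share 748 of 13401 bases with Pitrm1 on the other strand, and reads there cannot be assigned because the library kit does not keep strand. Pfkm, which was not among the 8 genes, was lower in KO on d0 (-0.55 ± 0.06, adjusted p = 7.059e-06) and higher on d4 (0.76 ± 0.06, adjusted p = 8.214e-08) and d6 (0.95 ± 0.06, adjusted p = 2.949e-09). Its level on d6 was 144 ± 8.54 TPM in Ctrl and 278 ± 6.72 TPM in KO (SD, n = 3).

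Lactate dehydrogenase is a tetramer of the subunits encoded by Ldha, the muscle type known for turning pyruvate into lactate, and Ldhb, the heart type. Ldha (chromosome 7, 46841475 to 46855627, plus strand) rose in both genotypes. It was at 164 to 195 TPM in Ctrl and 165 to 223 TPM in KO on d0, at 282 to 341 TPM and 294 to 409.8 TPM on d4, and at 388 to 483 TPM and 390.1 to 558 TPM on d6. The groups overlapped on every day, the log2 differences were 0.19, 0.11 and 0.09 with an SE of 0.15, and none was called (adjusted p = 0.3451, 0.5368 and 0.6245). From d0 to d6, Ldha rose by 1.30 ± 0.15 in Ctrl and 1.20 ± 0.15 in KO. These values for Ldha carry the limit that 16.5% of the 36-base words of its transcripts, the length of the reads, also occur in other genes, most often in the pseudogene Gm5452.

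Ldhb (chromosome 6, 142490249 to 142507957, minus strand) had 204, 199 and 181 TPM in the Ctrl libraries on d0, and the KO libraries overlapped them with 194, 174 and 212 TPM. On d4, Ctrl had 608, 525 and 586 TPM and KO 357, 318 and 309 TPM. On d6, Ctrl had 246, 254 and 226 TPM and KO 125, 106 and 111 TPM. The KO libraries were below all Ctrl libraries on both later days, and Ldhb was lower by -0.80 ± 0.09 on d4 (adjusted p = 1.284e-06) and by -1.08 ± 0.09 on d6 (adjusted p = 1.999e-08). In Ctrl, Ldhb rose by 1.55 ± 0.09 to d4 and then fell by 1.24 on the log2 scale, and in KO it rose by 0.76 ± 0.09 and then fell by 1.52. The pseudogene Gm5514 shares 29.6% of the 36-base words of Ldhb and had 580 TPM in Ctrl and 367 TPM in KO on d4, and 270.4 and 135 TPM on d6. Reads of Ldhb and Gm5514 are therefore not fully separable in these values.

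Pdk1 (chromosome 2, 71873224 to 71903858, plus strand), which encodes a kinase that inhibits pyruvate dehydrogenase and is a known target of hypoxia-inducible factor, had the lowest level of the 8 genes on d0. The Ctrl libraries had 4.89, 4.50 and 3.87 TPM there and the KO libraries 7.82, 5.08 and 5.02 TPM. On d4, Ctrl had 38.1, 34.7 and 38.9 TPM and KO had 47.6, 55.8 and 54.9 TPM. On d6, Ctrl had 40.2, 29.6 and 32.7 TPM and KO 104.5, 63.5 and 62.6 TPM. KO libraries were above all Ctrl libraries on each day, but the log2 differences of 0.34 ± 0.18 on d0 and 0.49 ± 0.18 on d4 were not called (adjusted p = 0.1544 and 0.03065). The d4 difference was called under 5 of 28 alternatives, among them the fit of those 2 groups alone (adjusted p = 0.001878) and median-ratio rescaling (0.66, adjusted p = 0.006274). On d6, Pdk1 was higher in KO by 1.12 ± 0.18 (adjusted p = 6.419e-05), a KO mean 2.25 times that of Ctrl, and by 0.87 without replicate 1 (adjusted p = 0.0002143). From d0 to d6, it rose by 2.69 ± 0.18 in Ctrl and by 3.46 ± 0.18 in KO.

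**Figure D2:**
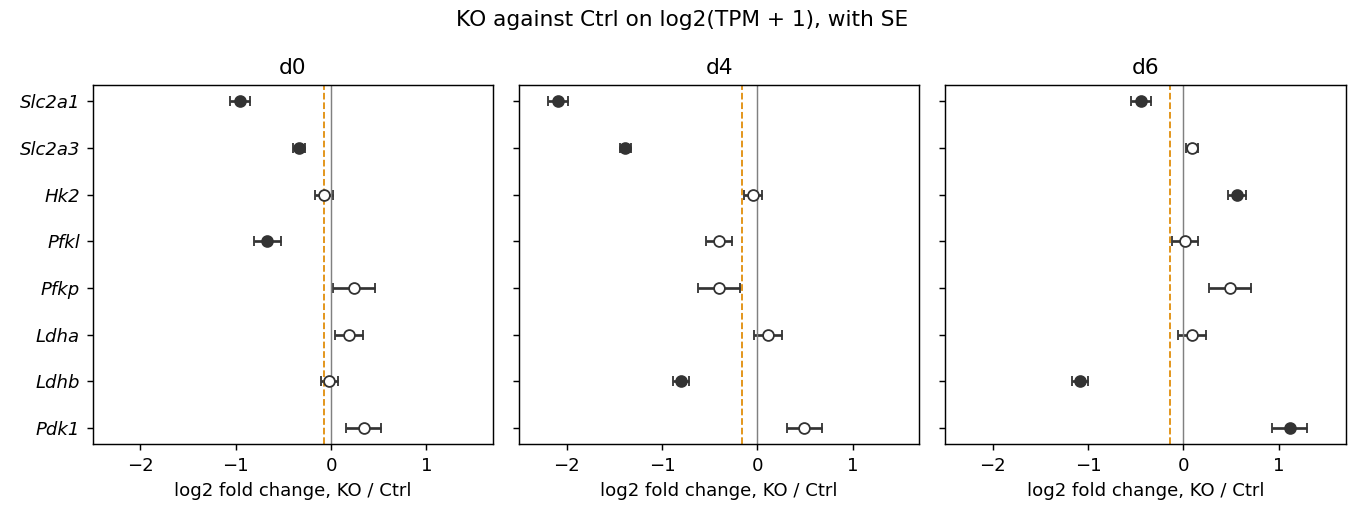
Log2 fold change of KO over Ctrl on log2(TPM + 1) (x axis) for the 8 genes (rows) on d0, d4 and d6; bars are SE, filled points have an adjusted p below 0.01 and the dashed orange line is the median of all 10965 genes. Slc2a1 and Slc2a3 lie at -2.09 and -1.38 on d4, and Pdk1 and Ldhb at 1.12 and -1.08 on d6.

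Counted over the 8 genes, 3 were lower and 0 higher in KO on d0, where 16.4% of all genes were lower and 10.6% higher. The 3 were Slc2a1, Slc2a3 and Pfkl. With limma, 0 of the 8 were higher on d0 at an unadjusted p below 0.05 too, and 0 with voom. When the fit held only the 2 groups of d0, however, Pfkp was called higher (0.24, adjusted p = 0.005909). On d4, Slc2a1, Slc2a3 and Ldhb were lower and 0 were higher by limma, against 32.7% and 12.7% of all genes, while 1 gene, Pdk1, was higher at an unadjusted p below 0.05 and was called with voom. On d6, Slc2a1 and Ldhb were lower and Hk2 and Pdk1 higher, 2 of 8 in each direction, against 34.3% and 17.9% of all genes. The moderated F test of the time series, which asks whether the change since d0 differed between genotypes on any later day, called Slc2a1, Slc2a3, Hk2 and Ldhb, 4 of 8 against 48.7% of all genes. Each count rests on 8 genes chosen with earlier results known, and none is a result about the 8 genes as a set.

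Between days, 7 of the 8 genes changed from d0 to d4 in Ctrl (67.4% of all genes), with Pfkp the exception (-0.37 ± 0.22, adjusted p = 0.1374), and 7 in KO (56.7%), with Slc2a3 the exception. The fall of Pfkp in Ctrl was called under 4 of 28 alternatives, among them the fit of those 2 groups alone (adjusted p = 0.0007331). In this and later tallies, many of the alternatives could change the p but not the fold change. From d4 to d6, 5 changed in Ctrl (44.1%), all of them downward, Slc2a1, Slc2a3, Hk2, Pfkp and Ldhb. In KO, 3 changed (41.4%), Slc2a1 upward by 1.26 ± 0.11 and Hk2 and Ldhb downward, with Hk2 close to the threshold (-0.31 ± 0.09, adjusted p = 0.0099) and called under 7 of 28 alternatives. Slc2a1 thus moved in opposite directions over the last interval, since it fell by 0.39 on the log2 scale in Ctrl (adjusted p = 0.005336), a fall called under 23 of 28 alternatives. The call was lost after quantile normalization (adjusted p = 0.03977), without replicate 2 or 3 of Ctrl d4 (adjusted p = 0.0111 and 0.03345) and without replicate 2 or 3 of Ctrl d6 (adjusted p = 0.02339 and 0.0215). From d0 to d6, all 8 were called in Ctrl (71.5%) and 7 in KO (67.7%), again without Slc2a3. Ldhb was higher on d6 than on d0 in Ctrl (0.31 ± 0.09) and lower in KO (-0.76 ± 0.09). The first of these was not called after median-ratio rescaling (0.02, adjusted p = 0.8867), after removal of chromosome medians (0.00, adjusted p = 0.9664) or with voom (0.26, adjusted p = 0.01287).

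The change since d0 was compared between genotypes for each gene. From d0 to d4, the difference was called for 3 of 8 genes (36.1% of all genes), and all 3 rose less in KO, namely Slc2a1 by -1.14 ± 0.15, Slc2a3 by -1.05 ± 0.09 and Ldhb by -0.79 ± 0.12. From d0 to d6, it was called for 5 of 8 (43.7%). Slc2a1, Slc2a3, Hk2 and Pfkl had a more positive change in KO, with differences of 0.50, 0.43, 0.63 and 0.68, and Ldhb a more negative one of -1.07. The value for Slc2a1 lay close to the threshold (adjusted p = 0.009271) and was called under 10 of 27 alternatives, and that for Pfkl (adjusted p = 0.007386) under 18 of 27. For Pdk1, a difference of 0.77 ± 0.26 did not pass (adjusted p = 0.01899).

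Shares within a gene pair were computed per library from TPM. Of the summed TPM of Slc2a1 and Slc2a3, Slc2a1 made up 24.4% ± 0.84 in Ctrl and 17.4% ± 2.10 in KO on d0, 51.2% ± 2.18 and 39.1% ± 0.86 on d4, and 69.3% ± 1.83 and 60.8% ± 4.62 on d6 (SD, n = 3). The share increased with the day in both genotypes and was lower in each KO library than in each Ctrl library of the same day. An exact two-sided permutation test of 3 against 3 libraries cannot go below p = 0.1, and it gave p = 0.1 on all 3 days. Ldha made up 47.5% ± 2.63 of the TPM of Ldha and Ldhb in Ctrl and 51.1% ± 2.45 in KO on d0, with overlap (exact permutation p = 0.2). On d4, it made up 35.7% ± 1.00 in Ctrl and 51.2% ± 5.65 in KO, and on d6 64.2% ± 3.30 and 80.3% ± 1.52, without overlap on either day (exact permutation p = 0.1). Pfkp made up 24.6% ± 0.53 of the TPM of the 3 phosphofructokinase genes in Ctrl and 36.8% ± 1.05 in KO on d0, 10.7% ± 0.08 and 8.86% ± 0.11 on d4, and 4.10% ± 0.50 and 4.84% ± 1.92 on d6. The groups did not overlap on d0, when KO was higher, or on d4, when KO was lower (exact permutation p = 0.1 on both), and they overlapped on d6 (exact permutation p = 0.8). These shares depend on the gene lengths behind TPM, and on the scale of reads the same share of Slc2a1 was 13.3% in Ctrl and 9.12% in KO on d0.

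**Figure D3:**
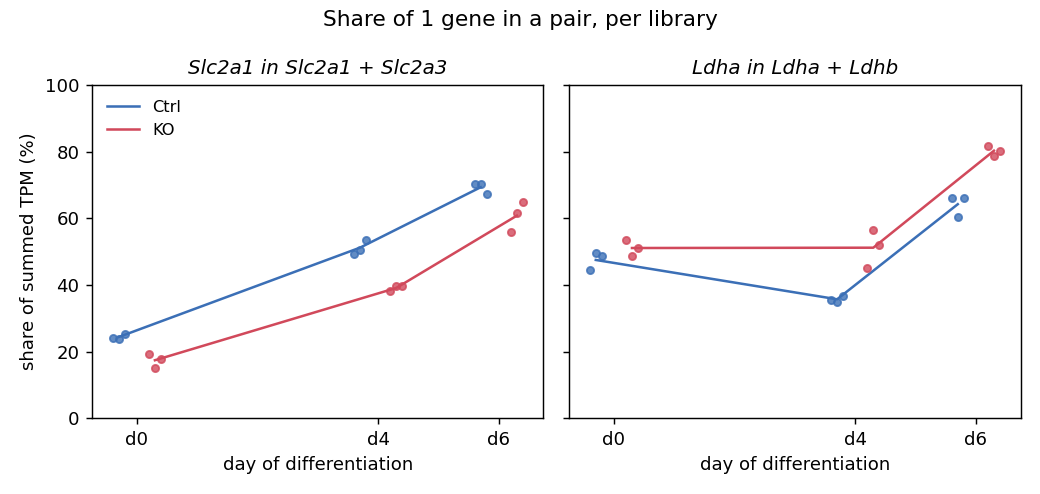
Share in percent (y axis) of Slc2a1 in the summed TPM of Slc2a1 and Slc2a3 (left) and of Ldha in that of Ldha and Ldhb (right) against day (x axis) in each Ctrl (blue) and KO (red) library, with lines through group means. The Slc2a1 share is lower in KO on each day, and the Ldha share on d6 is 80.3% in KO and 64.2% in Ctrl.

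The other genes of these pathways were taken from lists, and their counts stand beside the shares of all genes called, which were 16.4% lower and 10.6% higher on d0, 32.7% and 12.7% on d4, and 34.3% and 17.9% on d6. Of 12 further glycolysis genes, 2 were lower and 1 higher in KO on d0, 1 was lower and 1 higher on d4, and 3 were higher (Pfkm, Aldoa and Pkm) and 1 lower (Eno3) on d6, with a median log2 difference of 0.23 on d6 against -0.14 over all genes. Without replicate 1 of KO d6, this median was 0.14, and 2 were higher and 1 lower. Aldoa, which encodes an aldolase, was at 1023 ± 115 TPM in Ctrl and 1482 ± 100.3 TPM in KO on d6 (SD, n = 3). Pkm, the pyruvate kinase gene of most tissues, was higher by 0.26 ± 0.07 on d6 (adjusted p = 0.004728), and this call was lost without replicate 1 of KO d6 (0.22, adjusted p = 0.02236). Eno3, the muscle enolase, was lower in KO on d6 (101 ± 9.19 TPM in Ctrl and 51.4 ± 10.4 TPM in KO, adjusted p = 1.643e-06). Several glycolysis genes, Gapdh and Pgam1 among them, were not analysed here. In the summed TPM of all 15 measured glycolysis genes, Ctrl went from 3638 ± 104 on d0 to 5171 ± 391 on d6 and KO from 3062 ± 140.1 to 6417 ± 528. Pkm and Aldoa made up the larger part of these sums, with Pkm at 2456 TPM in Ctrl and 2946 TPM in KO on d6. The sums of single libraries on d6 ran from 4763 to 5543 TPM in Ctrl and from 6026 to 7018 TPM in KO.

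Genes around lactate and pyruvate differed in both directions. The lactate transporter genes Slc16a1 and Slc16a3 were lower in KO on d0 (adjusted p = 0.004616 and 0.00939), and Slc16a1 was higher on d6 (0.26 ± 0.07, adjusted p = 0.006863). Slc16a3 was at 99.4 ± 16.6 TPM in Ctrl and 173 ± 12.9 TPM in KO on d6, which was not called (adjusted p = 0.02845). Of 9 further genes for the entry of pyruvate into mitochondria, 2 were higher and 1 lower on d0, 3 higher and 1 lower on d4 and 4 higher and 2 lower on d6, against 12.7% higher and 32.7% lower of all genes on d4 and 17.9% and 34.3% on d6. Pdha1 and Pdhb, subunits of pyruvate dehydrogenase, and Pdp1, a phosphatase that activates it, were higher on d4 and d6, although Pdp1 was not called on d6 without replicate 1 of KO d6 (0.62, adjusted p = 0.01036). Dld, a further subunit of the complex, was higher on d0 (0.25 ± 0.06, adjusted p = 0.002721) and lower on d6 (-0.21 ± 0.06, adjusted p = 0.004832), and the d6 call was lost without the same library (adjusted p = 0.01086). Pdk3, a kinase of the same family as Pdk1, was lower on both days (-0.92 ± 0.07 on d4, adjusted p = 1.461e-08, and -0.71 ± 0.07 on d6, adjusted p = 1.37e-07). Pdk1 and Pdk3 thus differed in opposite directions on d6, where Pdk3 was at 101 ± 4.30 TPM in Ctrl and 61.6 ± 4.62 TPM in KO.

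The pentose phosphate pathway branches from glycolysis at glucose 6-phosphate and yields NADPH and ribose. Of its 6 measured genes, 4 were higher in KO on d4 (G6pdx, Pgd, Rpe and Tkt) and 5 on d6, with Taldo1 added, where 12.7% and 17.9% of all genes were higher. The median log2 differences were 0.29 and 0.40. G6pdx, the entry enzyme, was at 52.0 ± 2.11 TPM in Ctrl and 88.7 ± 5.04 TPM in KO on d6 (SD, n = 3), a log2 difference of 0.76 ± 0.09 (adjusted p = 1.565e-06). Tigar, whose product favours this pathway over glycolysis, was higher in KO on d0, d4 and d6 (0.39, 0.68 and 0.67, each with an SE of 0.08, adjusted p = 0.0007733, 2.015e-06 and 1.439e-06). On d0, none of the 6 genes was higher by limma and 1 was lower, Rpe (-0.49 ± 0.08, adjusted p = 0.0002064), and at an unadjusted p below 0.05 Tkt was also lower.

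**Figure D4:**
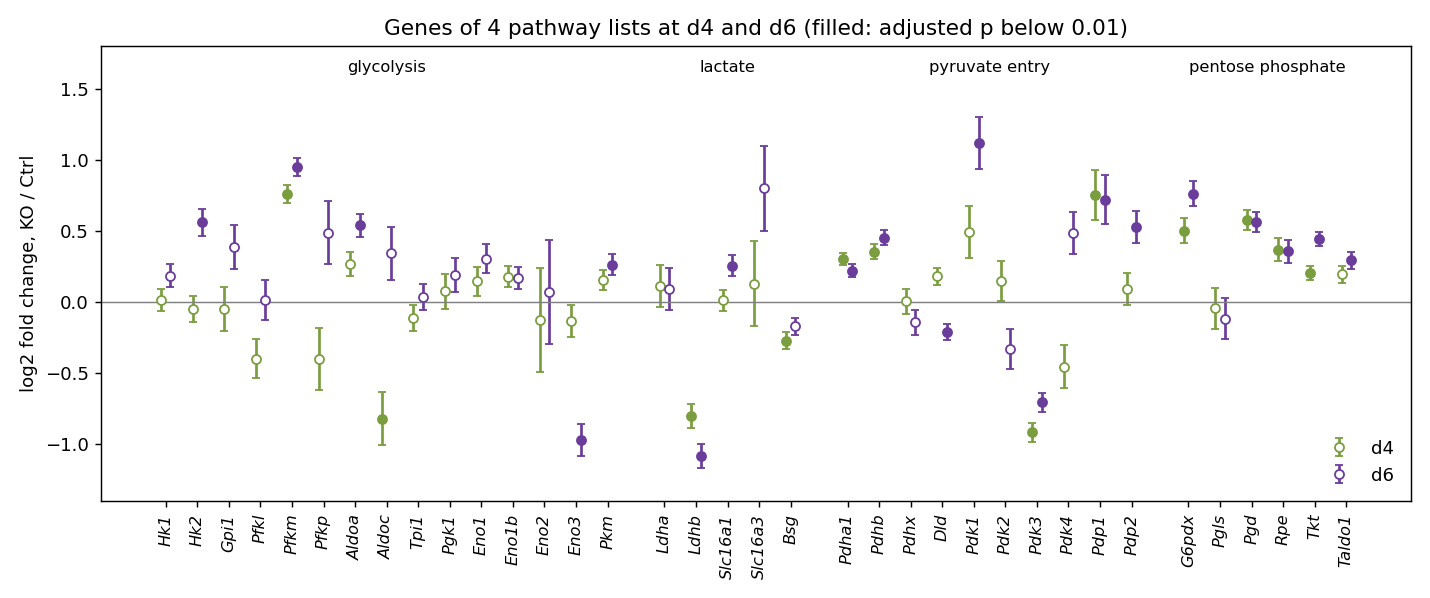
Log2 fold change of KO over Ctrl on log2(TPM + 1) (y axis) with SE for the measured genes of 4 lists (x axis) on d4 (green) and d6 (purple); filled points have an adjusted p below 0.01. Filled points of the pentose phosphate list lie above 0 on both days, and Pdk1 (1.12) and Pdk3 (-0.71) lie on opposite sides on d6.

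Of 19 measured genes of the hypoxia response, 4 were lower in KO on d0 and 8 on d4, where 16.4% and 32.7% of all genes were lower. By limma, 0 were higher on either day (1 on d0, Vhl, and 0 on d4 at an unadjusted p below 0.05). On d6, 4 were higher and 5 lower, against 17.9% and 34.3% of all genes. The higher genes were Egln3, Ddit4, Mxi1 and Bhlhe40, and the lower ones Hif1a, Vhl, Egln1, Egln2 and P4ha1. Vhl, Egln1 and Egln2 were lower by -0.56, -0.91 and -0.46 on d4 and by -0.83, -0.98 and -0.69 on d6. Hif1a was lower on d4 (-0.33 ± 0.07, adjusted p = 0.0006068) and d6 (-0.25 ± 0.07, adjusted p = 0.004399), whereas Egln3, a HIF prolyl hydroxylase and HIF target, was lower on d0 (-1.16 ± 0.19, adjusted p = 0.00017) and higher on d6 (1.13 ± 0.19, adjusted p = 7.719e-05). The summed TPM of the list was 1236 to 1489 in Ctrl and 1283 to 2077 in KO on d6, and without replicate 1 of KO d6 the counts were 3 higher and 9 lower.

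Of 8 genes known to regulate glycolysis in stem cells, 5 were lower and 1 higher in KO on d0, 2 were lower and 2 higher on d4, and 3 were lower and 2 higher on d6, beside 16.4% lower and 10.6% higher of all genes on d0, 32.7% and 12.7% on d4 and 34.3% and 17.9% on d6. Txnip, whose product restrains glucose uptake by GLUT1 and which glucose itself induces, was lower in KO on d0 (61.2 TPM in Ctrl and 32.6 TPM in KO, log2 difference -0.88 ± 0.08, adjusted p = 4.431e-07). On d4 and d6, Txnip was at 378 and 491 TPM in Ctrl and 406 and 469 TPM in KO, and neither difference was called (adjusted p = 0.2464 and 0.4431). Myc and Mycn, which activate many glycolysis genes, were both higher in KO on d4 (1.20 ± 0.19 and 0.67 ± 0.11). Mycn was lower in KO on d0 (-0.61 ± 0.11, adjusted p = 0.0003946) and on d6 (-0.65 ± 0.11, adjusted p = 0.0001009), and the log2 differences of Myc on these days, 0.47 and 0.41, were not called (adjusted p = 0.05641 and 0.06545).

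Replicate 1 held the highest value on d6 for 6 of the 8 genes in Ctrl and 7 of 8 in KO, whereas over all genes it was highest for 26.4% in Ctrl and 42% in KO. The same library was highest for 10 and 13 of the 15 glycolysis genes. In KO, replicate 1 on d0 and replicate 2 on d4 were each highest for 6 of the 8 genes, against 3779 and 4193 of all 10965 genes. In Ctrl, replicate 3 on d4 was highest for 7 of the 8 genes, against 3971 of all 10965. Libraries of a group thus differed in these genes together, and its part in the differences between genotypes was not tested. Without replicate 1 of KO d6, Hk2, Pdk1 and Ldhb were still called on d6 (0.43, 0.87 and -1.15).

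Across the 18 libraries, which share their groups and days, the 8 genes fell into patterns that are given as descriptions. Pearson's r of log2(TPM + 1) was 0.95 for Hk2 and Pfkp, which were both lower on d6 than on d0 in either genotype, and between 0.74 and 0.92 for each pair among Slc2a1, Pfkl, Ldha and Pdk1, which were higher on d6 than on d0 in both genotypes. Slc2a3 and Ldhb, which both peaked on d4 in Ctrl, had r = 0.73. Hk2 and Ldha had r = -0.82. The genes most like each member over the 18 libraries were Bcl2l11 for Slc2a1 (r = 0.99), Grasp for Slc2a3 (0.95), Atg9b for Hk2 (0.98), Ttc21b for Pfkl (0.99), Usp48 for Pfkp (0.96), Pgk1 for Ldha (0.96), Gm5514 for Ldhb (0.98) and Esrp1 for Pdk1 (0.99). Esrp1, a splicing regulator of epithelial cells, was at 18.0 TPM in Ctrl and 57.5 TPM in KO on d6.

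Hk2, Slc2a3 and Ldhb lie on chromosome 6, whose 557 placed genes had a median log2 difference of 0.08 on d0, -0.24 on d4 and -0.17 on d6, against -0.07, -0.16 and -0.14 over all genes. Within 5 Mb of Slc2a3, 83 genes had a median of -0.34 on d4, where Slc2a3 itself was at -1.38. Within 5 Mb of Ldhb, 28 genes had medians of -0.13 on d4 and -0.15 on d6, where Ldhb was at -0.80 and -1.08. With the chromosome medians removed, Slc2a3 was still called on d4 (-1.13), Ldhb on d4 and d6 (-0.55 and -0.86) and Hk2 on d6 (0.78).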

How the data were processed

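RNA-seq was measured in 18 libraries. Per the labels and methods, the authors mapped single reads of 36 bases onto GRCm38 (TopHat2 2.0.13), obtained gene counts (featureCounts 1.4.6), deposited TPM values for genes past a filter on low and least variable genes, and tested with DESeq2. Of 11046 rows, the first of each identifier was kept (10965 genes). The 3 columns of variability scores by the authors were not used.

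Reads behind each TPM value were recovered as whole numbers (tolerance 1e-06) for 100.0% of genes, with 1 added read subtracted, giving 9624677 to 15621169 reads per library (median 12133852). Intervals and tests cover the spread between 3 replicates, which the study calls independent experiments.

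The comparisons used limma (3.58.1, R 4.3.3) on log2(TPM + 1) (pseudocount 1), with 1 mean per group and an intensity trend, and the threshold of 0.01 applied to p adjusted across all genes by the Benjamini-Hochberg method. Fold changes on this scale understate low genes. The fit was tested on simulated data. Shares used exact permutation tests (Python 3.11.15). Positions and transcripts came from GENCODE M21, promoters from RefSeq (GRCm38.p6). The text names all 8 genes, the 3 most alike genes at most for each, and list genes. The 8 genes and the lists were chosen with earlier results of these data known. Alternatives were other pseudocounts, scalings, filters and models, voom, a replicate block and leaving out each library. Several of these, such as leaving out a library of a group not compared, can change the p but not the fold change. After the data were seen, list counts on d6 without KO d6 replicate 1 were added.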

Additional observations from a re-analysis of the deposited data

Results flagged for a closer look

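The change since d0 differed between KO and Ctrl for 3 of the 8 genes on d4 and for 5 on d6, by limma's test of the difference itself on log2(TPM + 1). From d0 to d4, Slc2a1 rose less in KO by -1.14 (adjusted p = 1.627e-05), Slc2a3 by -1.05 (adjusted p = 1.421e-07) and Ldhb by -0.79 (adjusted p = 7.464e-05). Over the 27 alternatives, some of which could not move the fold change, the first ranged from -1.35 to -1.01 and the second from -1.18 to -0.68. Both were called in all 27. The value of Ldhb ranged from -0.89 to -0.42 and was not called with chromosome medians removed (-0.42, adjusted p = 0.01089).

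From d0 to d6, the change was more positive in KO for Slc2a1 (0.50, adjusted p = 0.009271), Slc2a3 (0.43, adjusted p = 0.0005083), Hk2 (0.63, adjusted p = 0.0007492) and Pfkl (0.68, adjusted p = 0.007386) and more negative for Ldhb (-1.07, adjusted p = 2.182e-06). Hk2 and Ldhb were called in all 27 alternatives and Slc2a3 in 26. Slc2a1 was called in 10 and Pfkl in 18, with adjusted p from 0.001545 to 0.2719 and from 0.0006646 to 0.04516.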

How the results depend on the processing

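Of the values of single genes under each alternative, 2312 kept their sign and their side of the threshold. Another 35 changed sign but were called neither as reported nor under the alternative. A call was lost for 64, gained for 36 and reversed for 1, namely Slc2a3 in KO from d4 to d6, at 0.21 with chromosome medians removed (adjusted p = 0.008014). Many alternatives, such as those without a library of a group not compared, could change only the p. The count of 2312 therefore includes values whose sign could not change. Of the 8 genes, those called on d4 between KO and Ctrl numbered 5 after quantile normalization and 6 when only the groups compared were fitted (3 as reported), and those called from d4 to d6 in KO numbered 6 with voom (3 as reported). With each library left out in turn, the number called between KO and Ctrl was 3 to 3 on d0, 3 to 5 on d4 and 3 to 5 on d6. In Ctrl it was 7 to 8 from d0 to d4, 4 to 5 from d4 to d6 and 7 to 8 from d0 to d6, in KO 7 to 7, 2 to 4 and 7 to 7, and in the time series 4 to 6. The value of 5 on d4 came without replicate 1 of KO d6, which added Pfkp (adjusted p = 0.005277) and Pdk1 (adjusted p = 0.007602). On the scale of reads, the share of Ldha in KO minus Ctrl was 10.3 percentage points on d6 (16.1 with TPM), that of Slc2a1 -4.17 on d0 and -9.91 on d4 (-6.97 and -12.1), and that of Pfkp 13.7, -2.64 and 2.82 on d0, d4 and d6 (12.3, -1.88 and 0.74), by the construction of TPM. The cause of the other shifts was not tested.

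Same-numbered libraries of the genotypes had deviations that correlated at -0.08 to 0.23, and differently numbered ones at -0.22 to 0.08. Most KO libraries correlated best with their own number. Since not every one did, the numbers were not taken as pairs in the main fit. The replicate block gives each number the same effect on every day and in both genotypes, so it does not model pairing within a day. With the replicate block, 3, 3 and 4 genes were called between KO and Ctrl, as without it, Hk2 from d4 to d6 in KO (-0.31, adjusted p = 0.01177) and the Slc2a1 difference in change to d6 (0.50, adjusted p = 0.01265) were not called, and that of Pdk1 was (0.77, adjusted p = 0.008048).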
